A study of Mus musculus with 20 samples.

Results

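Benzo[a]pyrene (B[a]P), a combustion product, was given for 8 hours to mouse Hepa-1 hepatoma cells that had been grown for 25 passages with hexavalent chromium, Cr(VI), and the RNA was compared with that of equally grown cells given the solvent DMSO. The comparison uses 4 of the 20 libraries of the series: B[a]P replicates 1 and 2 against DMSO replicates 1 and 2, paired by replicate number. Set beside them were Cr(VI)-grown cells of passage 20, recovered cells of passage 25 (20 passages with Cr(VI), then 5 without) and control-grown cells of passage 25 that had no Cr(VI), each with B[a]P or DMSO. Every group had 2 libraries of the same cell line, and both B[a]P and DMSO cells of the main comparison carried the Cr(VI) growth history. The labels state 5 mM as the B[a]P dose and 0.5 mM as that of Cr(VI), although the title calls the concentrations low, and the unit is printed here as labelled. The sample titles use 27 for the cells labelled passage 25. Whether the duplicates were separate cultures is not stated, so each p-value covers library-to-library spread, which may be technical.

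B[a]P is a ligand of the aryl hydrocarbon receptor (AHR), a cytosolic factor held by HSP90 and co-chaperones. Ligand-bound AHR enters the nucleus, pairs with ARNT and binds DNA at xenobiotic response elements whose core reads GCGTG, next to genes such as those of the CYP1 cytochrome P450 family. CYP1 enzymes oxidise B[a]P to diol epoxides that bind guanine, and the bulky adducts stall polymerases and can activate p53. Quinone metabolites of B[a]P cycle between redox states, and NRF2 drives the antioxidant genes that answer them. Hepa-1 cells have long been used to study the AHR. Cr(VI) is reduced inside cells and leaves DNA adducts and crosslinks.

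Passage 25 libraries stood apart by replicate number before any treatment was considered. On log2 CPM, component 1 (72.7% of the variance) placed replicate 2 libraries between 52.1 and 80.1 and replicate 1 libraries between -104.1 and -27.4. In the Cr(VI)-grown cells, pair 2 was evenly placed (77.8 with B[a]P and 78.5 with DMSO), but pair 1 was not (-104.1 with B[a]P and -27.4 with DMSO). The 100 most counted genes took 15.7% of counts in B[a]P replicate 1 and 31.2% in B[a]P replicate 2, against 26.0% in DMSO replicate 1 and 34.3% in DMSO replicate 2. Total counts were 31596536 and 31802755 in the B[a]P libraries and 36362892 and 24866550 in the DMSO libraries. The part of this unevenness in the results was not tested, and values per pair are therefore printed beside those that differ between pairs. A second fit, with the share of the 100 most counted genes as a covariate beside the replicate number, is given for some genes. A gene printed without a value from that fit did not necessarily keep its call. That share was lower with B[a]P than with DMSO in both pairs, so the covariate and the treatment cannot be fully told apart. A call lost with the covariate therefore does not show that a change was absent, nor does a kept call test its cause. Among the hepatocyte markers Alb, Afp, Trf, Krt8 and Krt18 were counted in all 4 libraries, while Hnf4a reached at most 0.146 CPM and Apoa1 lay at 0. The 15 hepatocyte markers summed to 2769 and 10232 CPM with B[a]P, against 6140 and 10274 CPM with DMSO. In bulk RNA, fewer cells of a type and less RNA per cell cannot be told apart. Summed levels of 10 stellate cell and fibroblast markers were 680 and 1371 CPM with B[a]P, against 1056 and 1369 CPM with DMSO. For 9 macrophage markers they were 84.4 and 113 CPM with B[a]P, against 97.0 and 128 CPM with DMSO. Csf1r and Cd14 made up most of these, while Ptprc reached at most 0.0416 CPM. The 9 endothelial markers summed to 16.0 and 19.9 CPM with B[a]P, against 12.3 and 21.5 CPM with DMSO. Stab1 alone gave 14.1 and 18.3 CPM of these with B[a]P, while Pecam1 reached at most 0.229 CPM. For 7 cholangiocyte markers the sums were 429 and 1499 CPM with B[a]P, against 1067 and 1905 CPM with DMSO. Krt7 alone gave 255 and 1341 CPM of these with B[a]P, while Epcam lay at 0. Krt19 fell (adjusted p = 0.0247) but was no longer called lower with the covariate. The sums outside the hepatocyte list rested on few genes and do not show that such cells were present.

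**Figure D1:**
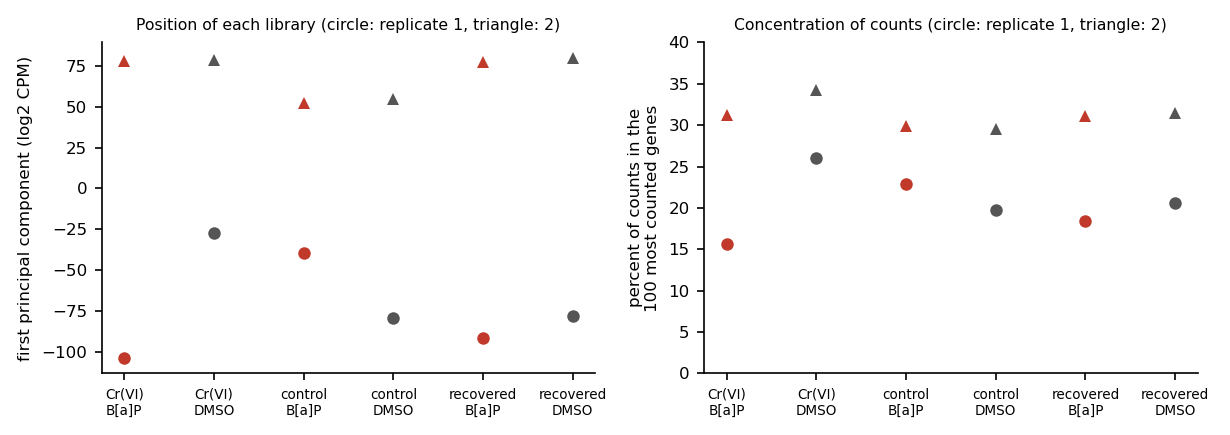
Position of the 12 passage 25 libraries on the first principal component of log2 CPM (left) and the percent of counts in the 100 most counted genes (right), with B[a]P in red left of DMSO in grey for each growth history. Replicate 1 of the Cr(VI)-grown cells shows the widest gap between B[a]P (-104.1) and DMSO (-27.4), while replicate 2 shows nearly none (77.8 and 78.5).

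AHR target genes rose together. Of 26 listed, 23 had enough counts to be tested, 14 rose, 0 fell and 9 did not pass, with a median log2 fold change of 1.98 (1.81 in pair 1 and 2.20 in pair 2). Across all 13692 genes tested, 4.1% passed in either direction, 1.58% higher and 2.51% lower, and the median log2 fold change was -0.00349. Here and below a gene passed at an adjusted p under 0.05 in edgeR's quasi-likelihood test with Benjamini-Hochberg adjustment over all genes tested. Levels are CPM, read counts scaled to the library total with TMM factors, and are not scaled to gene length.

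The RefSeq promoters of 5 AHR target genes that rose are shown first, because they differ in whether the receptor's core motif stands near that start. Each is the 250 bases before a RefSeq transcript start on GRCm38.p6, written 5′ to 3′ along the gene, and capitals mark GCGTG or its reverse complement CACGC.
Cyp1a1, chr9:57697363-57697612, plus strand: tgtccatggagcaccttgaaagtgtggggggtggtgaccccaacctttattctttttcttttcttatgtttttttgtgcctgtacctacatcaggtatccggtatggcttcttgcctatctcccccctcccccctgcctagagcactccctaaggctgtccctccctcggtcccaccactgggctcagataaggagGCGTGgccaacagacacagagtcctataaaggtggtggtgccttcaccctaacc
Tiparp, chr3:65528197-65528446, plus strand: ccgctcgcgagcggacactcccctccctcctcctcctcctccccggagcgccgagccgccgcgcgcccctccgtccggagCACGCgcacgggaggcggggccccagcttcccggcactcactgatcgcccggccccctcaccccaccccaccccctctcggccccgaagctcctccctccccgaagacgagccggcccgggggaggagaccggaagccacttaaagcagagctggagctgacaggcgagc
Cyp1b1, chr17:79715062-79715311, minus strand: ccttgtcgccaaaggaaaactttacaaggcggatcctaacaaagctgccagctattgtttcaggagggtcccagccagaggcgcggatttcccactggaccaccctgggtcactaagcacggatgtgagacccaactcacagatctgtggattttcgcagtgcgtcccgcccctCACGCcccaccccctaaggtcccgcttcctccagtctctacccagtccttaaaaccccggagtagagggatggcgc
Aox3, chr1:58112886-58113135, plus strand: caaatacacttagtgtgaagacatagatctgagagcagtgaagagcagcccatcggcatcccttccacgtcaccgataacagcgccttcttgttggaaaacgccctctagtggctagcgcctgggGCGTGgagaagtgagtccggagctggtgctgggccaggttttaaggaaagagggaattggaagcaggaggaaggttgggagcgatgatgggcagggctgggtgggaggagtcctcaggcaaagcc
Nqo1, chr8:107403206-107403455, minus strand: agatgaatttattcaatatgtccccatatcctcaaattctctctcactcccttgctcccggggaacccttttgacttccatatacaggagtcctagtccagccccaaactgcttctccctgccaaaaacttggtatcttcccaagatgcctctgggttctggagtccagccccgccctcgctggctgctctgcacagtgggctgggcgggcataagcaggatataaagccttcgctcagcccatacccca
The motif began 54 bases before the transcript start in Cyp1a1, 170 in Tiparp and 76 in Cyp1b1, and Aox3 held it too. The Cyp1a1 window lies inside the span RefSeq lists for the gene, whose first base is 57687928, and so precedes an internal start. These letters were not found in the Nqo1 window. Searched on both strands of 250 bases, with overlapping matches allowed, the motif stood before 8 of the 12 AHR target genes that rose and have a promoter in the table (66.7%). It also stood before 48.0% of the 10709 tested genes with a promoter, 50.9% of the 169 genes called higher and 57.8% of the 268 called lower. A match is a description of the letters only.

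Cyp1a1, the cytochrome P450 that starts B[a]P oxidation, lies on chromosome 9 (57687928 to 57703824, Entrez ID 13076). It had 847 and 1861 CPM with B[a]P, against 31.9 and 24.5 CPM with DMSO. Both B[a]P libraries lay far above both DMSO libraries, and the fold change was 46.7 (log2 5.54 ± 0.45 SE, 2 against 2 libraries, adjusted p = 1.57e-04). Its neighbour Cyp1a2, which also oxidises aromatic amines, had 27.6 and 54.1 CPM with B[a]P, against 3.78 and 3.86 CPM with DMSO (10.3-fold, adjusted p = 1.79e-04). Cyp1b1, the third member of the family, had 13.0 and 3.64 CPM with B[a]P, against 2.10 and 0.552 CPM with DMSO (6.20-fold, adjusted p = 0.00941). For Cyp1b1 the B[a]P libraries again lay above the DMSO libraries, but replicate 2 was low under both treatments, and its call was lost with the covariate (adjusted p = 0.305).

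Enzymes that process quinones, aldehydes and purines followed. Nqo1, the quinone reductase on chromosome 8 (107388225 to 107403205, ID 18104), had 297 and 488 CPM with B[a]P, against 31.4 and 23.8 CPM with DMSO (14.3-fold, adjusted p = 1.77e-04). Aldh3a1, an aldehyde dehydrogenase, had 321 and 1487 CPM with B[a]P, against 59.4 and 111 CPM with DMSO (8.92-fold, adjusted p = 0.00161). Xdh, the xanthine oxidoreductase, had 169 and 317 CPM with B[a]P, against 48.3 and 68.7 CPM with DMSO (4.09-fold, adjusted p = 0.00568). In each of these genes the groups did not overlap. The aldehyde oxidase genes Aox3 (log2 2.38 ± 0.27, adjusted p = 0.00136) and Aox1 (log2 1.39 ± 0.30, adjusted p = 0.0268) rose too, Aox1 with 1.85 in pair 1 and 0.80 in pair 2 and no call with the covariate (adjusted p = 0.738). Cyp2s1, a further cytochrome P450, differed in size between pairs, with log2 differences of 1.20 in pair 1 and 2.71 in pair 2 (adjusted p = 0.00662).

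Tiparp, the mono-ADP-ribosyltransferase that restrains AHR, had 129 and 24.8 CPM with B[a]P, against 13.8 and 2.98 CPM with DMSO (8.81-fold, log2 3.14 ± 0.33, adjusted p = 8.83e-04). Its levels were lower in replicate 2 under both treatments, while the rise was alike in both pairs (3.22 and 3.05). Tnfaip2 had 116 and 279 CPM with B[a]P, against 22.5 and 31.9 CPM with DMSO (6.79-fold, adjusted p = 1.79e-04). The selenium-binding protein gene Selenbp1 had 11.6 and 97.4 CPM with B[a]P, against 2.20 and 2.71 CPM with DMSO (14.4-fold, adjusted p = 0.00568). Its paralog Selenbp2 rose 13.4-fold, and reads of the pair may not be separable in this table. For Selenbp1 the DMSO libraries were close while the B[a]P libraries differed widely, with log2 differences of 2.39 in pair 1 and 5.16 in pair 2. Lpin1, a phosphatidate phosphatase, was the last of the 14 (2.55-fold, adjusted p = 0.0254, 0.178 with the covariate).

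The 9 target genes that did not pass included both Ugt1a6 entries, the glucuronosyltransferase genes Ugt1a6a and Ugt1a6b, which share only part of their exons. Ugt1a6a had 105 and 132 CPM with B[a]P, against 68.5 and 55.1 CPM with DMSO (log2 0.98 ± 0.33, adjusted p = 0.0978). Nfe2l2, which encodes NRF2, had 298 and 236 CPM with B[a]P, against 244 and 197 CPM with DMSO (log2 0.27 ± 0.26, adjusted p = 0.531). The amino acid transporter gene Slc7a5 had a negative value (log2 -0.65 ± 0.28, adjusted p = 0.164). Ahrr, the AHR repressor, and Fgf21 had too few counts to be tested. With the covariate 11 of the 14 kept their call, the exceptions being Cyp1b1, Aox1 and Lpin1. Refits that each omitted a library called 10 to 14 of the 23.

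**Figure D2:**
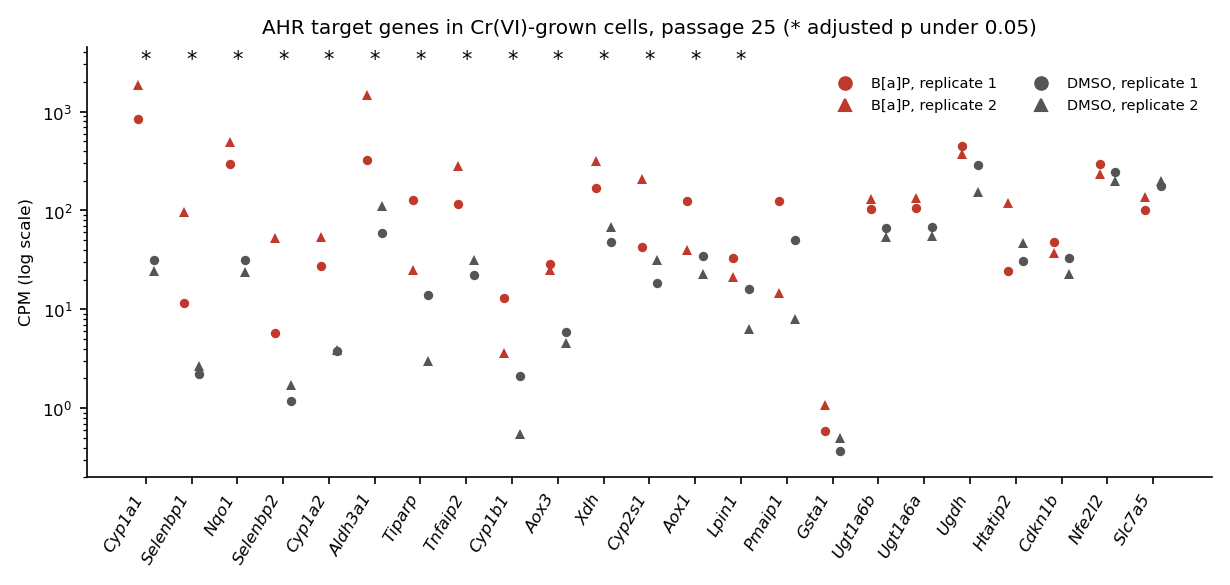
CPM (log scale) of the 23 AHR target genes tested, with B[a]P libraries in red left of DMSO libraries in grey and circles and triangles for replicates 1 and 2. In the 14 genes with an asterisk, from Cyp1a1 to Lpin1, both B[a]P libraries lie above both DMSO libraries.

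The receptor and its partners were not called. Of 19 genes for AHR, ARNT, chaperones and coregulators, 0 passed in edgeR, against 3 before adjustment, while DESeq2 called 1, lower. Over all genes tested 4.1% passed, 26.2% were under 0.05 before adjustment, and DESeq2 called 1103 lower. Counts this small in a list of 19 are therefore not read as a result about the list. Ahr had 92.0 and 23.0 CPM with B[a]P, against 82.8 and 36.5 CPM with DMSO (log2 -0.27 ± 0.36, adjusted p = 0.656). Arnt had 42.9 and 24.2 CPM with B[a]P, against 29.5 and 22.9 CPM with DMSO (log2 0.33 ± 0.22, adjusted p = 0.372). The groups overlapped for Ahr and for Arnt.

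Antioxidant genes driven by NRF2 rose in part. Of 31 tested, 7 rose, 0 fell and 24 did not pass, with a median log2 fold change of 0.22 (-0.14 in pair 1 and 0.37 in pair 2). The shares over all genes tested were 1.58% called higher and 2.51% called lower. The 7 were Hmox1, Gclc, Osgin1, Srxn1, Gclm, Gsr and Txnrd1. Hmox1, which degrades heme, had 84.9 and 271 CPM with B[a]P, against 22.6 and 30.1 CPM with DMSO (6.39-fold, adjusted p = 0.0135). Gclc, the catalytic subunit of glutathione synthesis's limiting enzyme, had 190 and 128 CPM with B[a]P, against 53.2 and 29.5 CPM with DMSO (3.96-fold, adjusted p = 0.00676). Its regulatory subunit Gclm rose 2.85-fold (adjusted p = 0.0388). Srxn1, which repairs oxidised peroxiredoxins, had 77.9 and 176 CPM with B[a]P, against 37.4 and 46.6 CPM with DMSO (2.85-fold, adjusted p = 0.00941). The groups did not overlap in Hmox1, Gclc or Srxn1. Abundant antioxidant genes did not pass, with log2 values of -0.41 for the ferritin heavy chain gene Fth1, -0.50 for Prdx6 and -1.13 for the transketolase gene Tkt. For Tkt the value was -1.86 in pair 1 and -0.39 in pair 2. With the covariate 2 of the 31 were called, Srxn1 (adjusted p = 0.0185) and Pgd, which is not among the 7. That fit called 148 of all 13692 genes. Total calls also differed widely between refits that omit a library, as given below, so their list counts are not compared with each other. Refits called 6 higher without B[a]P replicate 1, 4 higher and 3 lower without B[a]P replicate 2, 0 without DMSO replicate 1 and 1 higher without DMSO replicate 2.

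Genes of the p53 pathway rose in part as well. Of 38 tested, 7 rose, 0 fell and 31 did not pass, while 28 were higher in both pairs and the median log2 fold change was 0.81 (0.74 in pair 1 and 0.91 in pair 2). Over all genes tested 28.8% were higher in both pairs and 1.58% were called higher. Btg2, an antiproliferative gene, had 67.0 and 69.5 CPM with B[a]P, against 10.3 and 10.3 CPM with DMSO (6.66-fold, log2 2.74 ± 0.30, adjusted p = 0.00105). Plk2, a stress-responsive kinase, had 485 and 311 CPM with B[a]P, against 161 and 101 CPM with DMSO (3.04-fold, adjusted p = 0.00568). The death receptor gene Tnfrsf10b had 85.8 and 81.3 CPM with B[a]P, against 40.05 and 33.2 CPM with DMSO (2.29-fold, adjusted p = 0.0137). In each of these genes the B[a]P libraries lay above both DMSO libraries. Pidd1, Eda2r and Plk3 rose 1.99-fold to 2.59-fold. Polk, a translesion polymerase that can copy past bulky guanine adducts, had 43.5 and 10.4 CPM with B[a]P, against 17.0 and 4.75 CPM with DMSO. Its groups overlapped, because replicate 2 was low under both treatments, while the rise within pairs was 1.36 and 1.13 in log2 (adjusted p = 0.0456, 0.679 with the covariate).

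The best known p53 targets fell short of the threshold. Cdkn1a, the cell cycle inhibitor p21, had 401 and 1420 CPM with B[a]P, against 281 and 445 CPM with DMSO (log2 1.20 ± 0.38, adjusted p = 0.0845). Mdm2, the ubiquitin ligase that degrades p53, had 384 and 59.2 CPM with B[a]P, against 130 and 28.4 CPM with DMSO (log2 1.30 ± 0.35, adjusted p = 0.0582). Both groups of libraries overlapped for each gene. Bax, which opens the mitochondrial membrane, had a log2 value of -0.80 ± 0.32 (adjusted p = 0.135), with -1.41 in pair 1 and -0.35 in pair 2. Among all genes tested, DESeq2 called 533 higher and the fit with the covariate 50. DESeq2 called 15 of the 38 higher, the covariate left 2 (Btg2 and Plk2), and refits called 3 higher without B[a]P replicate 1, 4 higher and 1 lower without B[a]P replicate 2, 1 higher without DMSO replicate 1 and 2 higher without DMSO replicate 2.

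Immediate early genes and other stress genes gave a small number of calls, beside 1.58% called higher and 2.51% called lower over all genes tested. Of 27 immediate early genes 4 rose and 0 fell. Fos, a subunit of the AP-1 factor, had 12.01 and 5.75 CPM with B[a]P, against 3.02 and 0.939 CPM with DMSO (4.70-fold, adjusted p = 0.00435), and Fosl1, Jun and Zfp36 rose 1.99-fold to 2.67-fold. With the covariate 1 of the 27 was called, Fos (adjusted p = 0.0456). Refits without replicate 1 of B[a]P or of DMSO each called 1 higher, those without B[a]P replicate 2 called 5 higher and 1 lower, and those without DMSO replicate 2 called 3 higher. Of 24 tested genes of the BCL2 family and cell death 1 rose, 1 fell and 22 did not pass. Their median log2 fold change was 0.14, with 8 higher and 8 lower in both pairs, so the list had no common direction. Bmf, a BH3-only gene that promotes apoptosis, had 18.5 and 32.2 CPM with B[a]P, against 3.1997 and 2.82 CPM with DMSO (8.52-fold, adjusted p = 0.00308). Bcl2l1, which encodes the survival protein BCL-XL, had 200 and 357 CPM with B[a]P, against 486 and 702 CPM with DMSO (log2 -1.12 ± 0.24, adjusted p = 0.0285, 0.139 with the covariate). The groups did not overlap in either gene. Of 22 chaperone genes of the endoplasmic reticulum only Dnajb9 passed, and of 17 cytosolic heat shock genes Hspa4l (3.52-fold, adjusted p = 0.00199). A lone call in lists of this size is not read as a response of the list.

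DNA repair and cell cycle genes were mostly not called. Over all genes tested 1.58% were called higher and 2.51% lower, so 1 or 2 calls in lists of this size are not read as a response of the list. Of 47 genes of break and crosslink repair, Lig4, the ligase of end joining, rose (2.60-fold, adjusted p = 0.0431, 0.783 with the covariate) and 0 fell. With the covariate 0 of the 47 rose and 1 fell. Of 37 genes of base and nucleotide excision repair 1 rose and 2 fell. Ercc5, an endonuclease of nucleotide excision repair, had 73.8 and 29.7 CPM with B[a]P, against 25.1 and 11.8 CPM with DMSO (2.73-fold, adjusted p = 0.0118). Ung, the uracil glycosylase, had 4.41 and 4.83 CPM with B[a]P, against 14.4 and 13.6 CPM with DMSO (log2 -1.60 ± 0.24, adjusted p = 0.00548). Ung was no longer called lower with the covariate. The groups were separate for both genes. Of 36 S phase genes Pold1 fell and of 38 G2 and M phase genes Plk1 and Mybl2 fell, at log2 values of -1.23 to -1.40, and none of the 3 was called with the covariate. Medians were -0.40 for S phase genes and -0.32 for G2 and M phase genes, against -0.00349 over all genes tested. Lower in both pairs were 24 of the 36 S phase genes and 23 of the 38 G2 and M phase genes, against 33.6% of all genes.

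**Figure D3:**
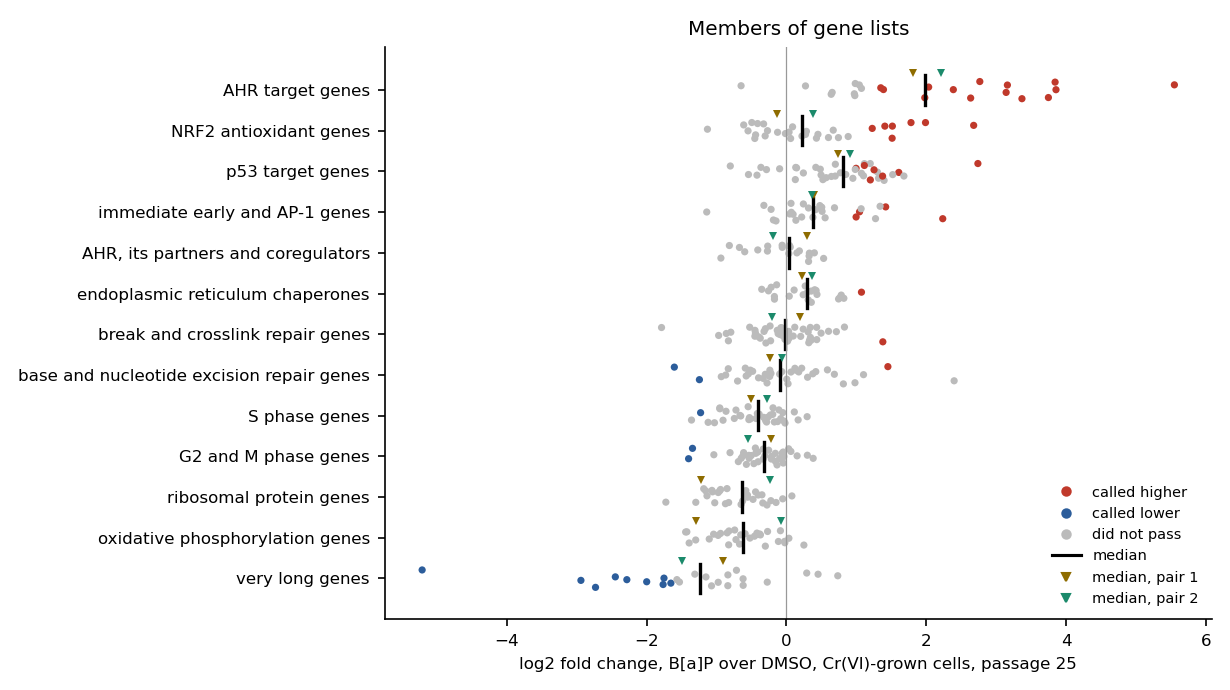
Log2 fold change (B[a]P over DMSO) of each tested member of 13 gene lists, with called genes in red (higher) or blue (lower), the list median as a black bar and the medians of pair 1 and pair 2 as triangles. AHR target genes have a median of 1.98, and the medians of ribosomal and oxidative phosphorylation genes lie at -0.64 and -0.62 with pair 2 nearer to 0 than pair 1.

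Outside these lists the largest rises included genes of several functions. Adh7, an alcohol dehydrogenase that acts on retinol, had 108 and 51.9 CPM with B[a]P, against 9.42 and 2.82 CPM with DMSO (14.5-fold, adjusted p = 0.00127). Ccno, an atypical cyclin, had 4.91 and 9.89 CPM with B[a]P, against 0.603 and 0.552 CPM with DMSO (11.4-fold, adjusted p = 0.00658). In Adh7 and Ccno every B[a]P library lay above every DMSO library. Ptgs2, the inducible cyclooxygenase, had 313 and 25.9 CPM with B[a]P, against 27.5 and 3.81 CPM with DMSO (log2 3.17 ± 0.53, adjusted p = 0.00855). Its groups overlapped, since replicate 2 was low throughout, and the call was lost with the covariate (adjusted p = 0.178). Mrgprg, a Mas-related receptor gene, had 8 and 133 counts with B[a]P, against 0 and 1 counts with DMSO (adjusted p = 0.0183), so few that no fold is given.

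Many genes that fell were long. The median genomic span, from first to last base of the gene on GRCm38.p6, was 98.0 kb for the 344 genes called lower, 16.3 kb for the 217 called higher and 20.9 kb for all genes tested with coordinates. Of 258 genes spanning over 300 kb, 54 fell (20.9%) and 1 rose, and of 1257 genes of 100 to 300 kb 116 fell (9.23%). In the bins up to 100 kb between 0.894% and 2.15% fell, against 2.51% of all genes. The median log2 fold change of genes over 300 kb was -0.72, with -0.63 in pair 1 and -0.84 in pair 2, and 65.5% of them were lower in both pairs. Over all genes tested 33.6% were lower in both pairs. For genes of 100 to 300 kb this was 46.6%, with medians of -0.06 in pair 1 and -0.42 in pair 2. Genes up to 10 kb also had medians below 0 in both pairs (-0.27 and -0.12), with 43.0% lower in both.

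The share of long genes among the falls changed with the fit. With the covariate 98 genes were called lower, 74 of them over 100 kb (75.5%), against 170 of 344 (49.4%) without it. All 37 genes called lower in both fits spanned over 100 kb. The 307 falls found only without the covariate had a median span of 64.1 kb, and their median log2 difference was -1.596 in pair 1 and -1.0001 in pair 2. Leaving out DMSO replicate 1 left 20 long falls (83.3% of all falls), B[a]P replicate 1 33 (89.2%), DMSO replicate 2 80 (38.6%) and B[a]P replicate 2 163 (16.0%). Transcript GC content was known for 94.0% of genes tested, with a median of 50.8%. The median was 54.5% in the 307 falls found only without the covariate, 50.2% in the 37 found in both fits and 46.5% in the 98 found with the covariate. In pair 1 the median log2 difference was 0.46 for genes with GC up to 45% and -0.49 for genes over 55%, while in pair 2 these medians were -0.13 and -0.17. The part of GC content in the falls was not tested.

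Pknox2, a homeobox transcription factor gene of 256 kb on chromosome 9, fell most among genes averaging at least 1 CPM. It had 0.125 and 0.345 CPM with B[a]P, against 5.67 and 10.8 CPM with DMSO (log2 -5.21 ± 0.47, adjusted p = 1.79e-04). Sox5, a transcription factor gene of 954 kb on chromosome 6 (143828425 to 144782287, ID 20678), had 0.791 and 0.192 CPM with B[a]P, against 3.38 and 3.64 CPM with DMSO (log2 -2.94 ± 0.50, adjusted p = 0.00966). Fhod3, an actin-nucleating formin gene of 425 kb, had 0.812 and 1.07 CPM with B[a]P, against 6.56 and 5.91 CPM with DMSO (log2 -2.74 ± 0.32, adjusted p = 0.00144). In all 3 genes the groups were far apart in both pairs, and all 3 kept their call with the covariate (adjusted p = 0.0194, 0.021 and 0.0456). Angpt1, a ligand of the endothelial receptor TIE2 and 252 kb long, had 3.98 and 0.575 CPM with B[a]P, against 23.5 and 7.12 CPM with DMSO (log2 -2.90 ± 0.35, adjusted p = 0.00165). The receptor gene Ror1 (349 kb, log2 -2.73 ± 0.48, adjusted p = 0.0103) and Btbd9 (367 kb, log2 -2.64 ± 0.40, adjusted p = 0.00568) fell as well, without a call when the covariate was added (adjusted p = 0.0975 and 0.12).

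Prkce, which encodes a protein kinase C of 490 kb, had 4.56 and 1.65 CPM with B[a]P, against 14.9 and 7.29 CPM with DMSO (log2 -1.89 ± 0.31, adjusted p = 0.00772). The cell polarity gene Pard3 (549 kb) had 10.8 and 7.93 CPM with B[a]P, against 38.3 and 25.8 CPM with DMSO (log2 -1.76 ± 0.27, adjusted p = 0.00601). Both genes had separate groups. On a list of 24 tested very long genes 9 fell and 0 rose, with a median of -1.23. That list was put together with falls of long genes in these libraries known, so its count is no independent evidence of direction. Not every long gene moved: Magi2 (1485 kb) had 1.44 and 0.958 CPM with B[a]P, against 0.918 and 1.05 CPM with DMSO (log2 0.29 ± 0.46, adjusted p = 0.721), and Lpp (599 kb) had a log2 value of -0.27 ± 0.32 (adjusted p = 0.608).

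**Figure D4:**
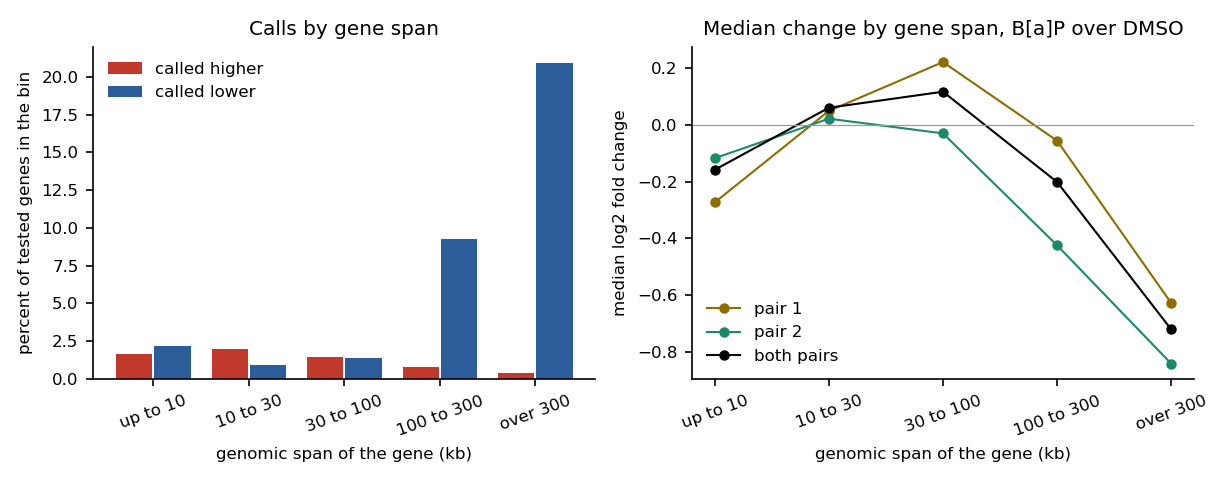
Percent of tested genes called higher (red) or lower (blue) in 5 bins of genomic span (left), and median log2 fold change, B[a]P over DMSO, in each pair and in both (right). The share called lower is 20.9% over 300 kb and 9.23% from 100 to 300 kb. The median lies below 0 in both pairs for these bins and also for the bin up to 10 kb.

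Several short genes with large falls changed more in pair 1. The hair keratin gene Krt83 had 0.354 and 4.87 CPM with B[a]P, against 9.91 and 27.4 CPM with DMSO (adjusted p = 0.041), with log2 differences of -4.75 in pair 1 and -2.49 in pair 2. Krt33b, another hair keratin, had 0.333 and 2.15 CPM with B[a]P, against 5.14 and 8.999 CPM with DMSO (adjusted p = 0.0221). The RNA subunits Rmrp and Rpph1 of 2 ribonuclease complexes gave log2 differences of -3.63 and -3.95 in pair 1 and -2.003 and -1.63 in pair 2 (adjusted p = 0.034 and 0.0431). The groups were separate in these 4 genes, yet none was called with the covariate (adjusted p between 0.583 and 0.907). Krtap1-5, a keratin-associated gene (log2 -3.20 ± 0.44, adjusted p = 0.00382), and Elobl (log2 -2.66 ± 0.41, adjusted p = 0.00629) fell alike in both pairs, and neither was called with the covariate (adjusted p = 0.126 and 0.139). Ribosomal protein genes, 0 of 30 called and 13 at an unadjusted p under 0.05, had a median of -1.22 in pair 1 and -0.24 in pair 2. For 30 oxidative phosphorylation genes, 0 called and 12 unadjusted, it was -1.30 in pair 1 and -0.08 in pair 2. Beside these counts, 26.2% of all 13692 genes tested were under 0.05 before adjustment, and DESeq2 called 1103 genes lower. Of the ribosomal and oxidative phosphorylation genes DESeq2 called 10 and 7 lower. With the covariate the medians were 0.12 for ribosomal and 0.36 for oxidative phosphorylation genes, so their direction depends on that term. Because the covariate was itself lower with B[a]P in both pairs, the medians of that fit do not settle the direction.

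In all, 561 of 13692 genes passed, 217 higher and 344 lower. All 561 had the same sign in both pairs, against 8545 of the 13692 genes tested. A gene whose pairs disagree can hardly pass in a fit with the replicate block, so this agreement follows largely from the selection. Across genes, which are not independent replicates, the log2 differences of pair 1 and pair 2 correlated at r = 0.348 over all genes. When the replicate block was dropped, edgeR called 0 genes, against 380 before adjustment. With the covariate 148 passed, 50 higher and 98 lower, of which 75 were among the 561. Leaving out DMSO replicate 1 left 48 calls, B[a]P replicate 1 95, DMSO replicate 2 272, and B[a]P replicate 2 1624.

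The other sets of libraries were used to ask how the response to B[a]P compared between growth histories. B[a]P against DMSO gave 437 calls in Cr(VI)-grown cells of passage 20 (3.05% of 14343 genes, 1.21% higher and 1.83% lower), or 6 with no replicate block. It gave 161 in recovered cells (1.18%, with 0.665% higher and 0.511% lower) and 255 in control-grown cells (1.86%, with 1.1% higher and 0.767% lower). Of the 217 genes called higher, 209 had a positive value at passage 20, 216 in recovered cells and 209 in control-grown cells. Over all genes tested 6486 of 14343 were positive at passage 20, 7067 of 13692 in recovered cells and 7668 of 13692 in control-grown cells. Of the 344 called lower, 334 had a negative value at passage 20, 339 in recovered cells and 263 in control-grown cells. The median log2 fold change of the 217 was 1.47 in Cr(VI)-grown cells, against 0.87 at passage 20, 1.11 in recovered cells and 1.0035 in control-grown cells. For the 344 it was -1.36, against -0.76 at passage 20, -0.76 in recovered cells and -0.49 in control-grown cells. Values for the genes called in the Cr(VI)-grown libraries are larger there by the way they were chosen. Calls in the same direction were shared with control-grown cells by 78 rises (35.9% of 217 and 52.0% of 150) and 69 falls (20.1% of 344 and 65.7% of 105).

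The differences themselves gave no call. For Cr(VI)-grown minus control-grown cells 0 of 13692 genes passed in edgeR, 2142 were under 0.05 before adjustment (337 with a more positive and 1805 with a more negative effect in Cr(VI)-grown cells), and DESeq2 called 484. Without control-grown B[a]P replicate 2, edgeR called 582. For Cr(VI)-grown minus recovered cells 0 passed, 477 were under 0.05 before adjustment and DESeq2 called 0. For passage 25 minus passage 20 these counts were 0, 1564 and 34, with 266 in edgeR when DMSO replicate 2 of passage 20 was left out. Cyp1a1 differed from control-grown cells by 0.06 ± 0.53 in log2, Nqo1 by 0.50 ± 0.42 and Tiparp by 0.54 ± 0.44. AHR target genes had a median difference of 0.12, with 1 of 23 under 0.05 before adjustment. At passage 20 12 of them rose, in recovered cells 13 and in control-grown cells 12. A miss of the threshold does not show that the responses were equal.

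Long genes fell in the other sets of libraries too. Genes over 300 kb had a median log2 fold change of -0.72 in Cr(VI)-grown cells, -0.78 at passage 20, -0.69 in recovered cells and -0.65 in control-grown cells. Called lower were 54 in Cr(VI)-grown cells, 35 at passage 20, 27 in recovered cells and 38 in control-grown cells. All genes called lower in these sets numbered 344, 263, 70 and 105 (2.51%, 1.83%, 0.511% and 0.767% of genes tested). The 54 are thus the largest count but not the largest part of the falls of a set. Pknox2 differed in size, with log2 values of -5.21 in Cr(VI)-grown cells, -3.9 at passage 20, -3.34 in recovered cells and -3.57 in control-grown cells, a difference from control-grown cells of -1.64 ± 0.67 that did not pass. The short gene Krt83 was at -2.31 at passage 20 (-1.69 in pair 1 and -2.79 in pair 2), -1.51 in recovered cells (-2.70 and -1.09) and -0.02 in control-grown cells (3.23 and -1.83), with no call in any of the 3. Rmrp was at -1.02 at passage 20 (0.89 in pair 1 and -2.43 in pair 2), -0.01 in recovered cells (-1.29 and 0.46) and 0.56 in control-grown cells (0.98 and -0.14), again with no call.

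**Figure D5:**
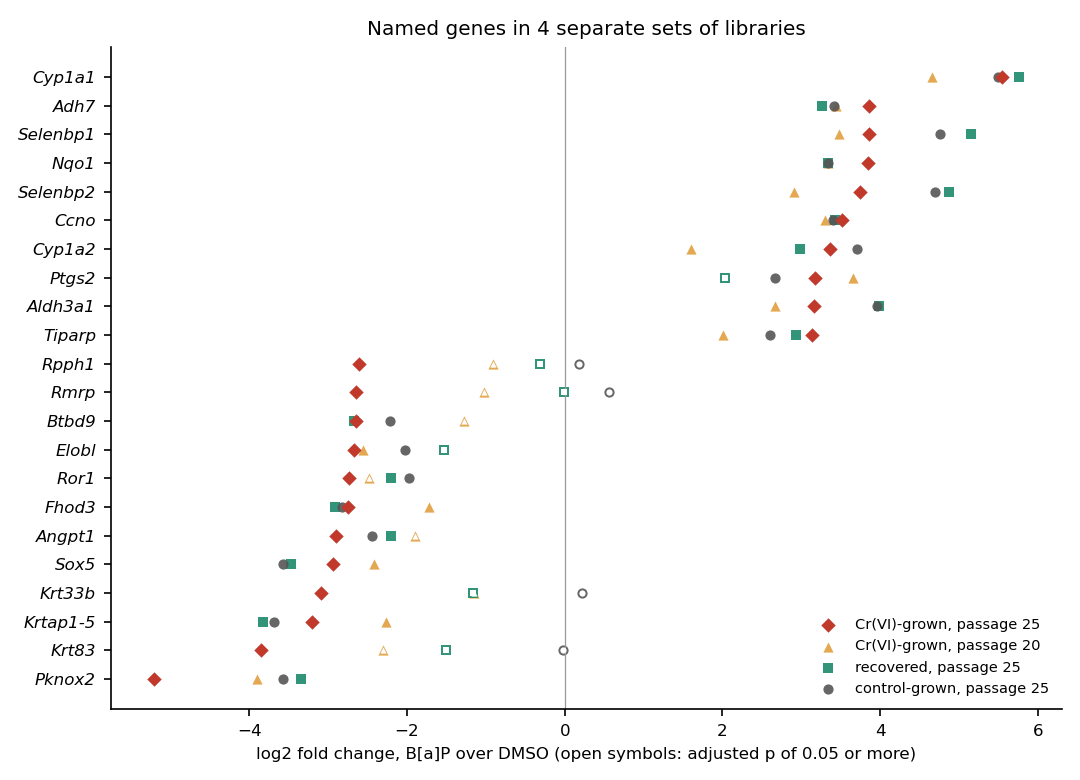
Log2 fold change, B[a]P over DMSO, of 10 of the 12 largest rises and of the 12 largest falls of Cr(VI)-grown cells at passage 25, with the same gene in passage 20, recovered and control-grown libraries, and open symbols where the adjusted p was 0.05 or more. All 10 rises shown are positive in the 4 sets, while Krt83, Krt33b, Rmrp and Rpph1 have open symbols in the other 3.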

How the data were processed

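The deposited table holds raw counts per Entrez gene for 20 libraries, which the authors made from Illumina reads of total RNA; the submitters' processing notes name TopHat, mm10, DESeq, bcl2fastq and CASAVA 1.8. The counter, its annotation and how strand was handled were not given in the sources used here, so overlapping and antisense genes cannot be told apart. Of 23373 IDs 23275 matched a RefSeq symbol (GRCm38.p6). Counts of the 12 passage 25 libraries were fitted with edgeR 4.0.16 (R 4.3.3) after filterByExpr and TMM, with 6 group means and the replicate number as a block (5 residual degrees of freedom). Tests were two-sided quasi-likelihood tests with Benjamini-Hochberg adjustment over 13692 genes. Passage 20 contrasts came from all 20 libraries (14343 genes, 8 residual degrees of freedom, block within each passage). DESeq2 1.42.0 was an alternative. SEs are the log2 fold change over the root of F. Pair differences are log2 CPM with a prior count of 0.5.

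The pairing comes from the replicate numbers in the titles. Differences between replicates 2 and 1 correlated between groups at 0.789 to 0.902 at passage 25 (15 correlations) and at -0.015 to 0.513 at passage 20 (6). The numbers therefore paired passage 25 libraries and were kept as a block, as the comparison was defined. At passage 20 the correlation was 0.513 between the DMSO and B[a]P groups of Cr(VI)-grown cells but under 0.1 for 3 of the 6, so pairing was not established there. The block was kept at passage 20 too, and counts without it are given.

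Named genes are the 12 largest and 12 lowest log2 fold changes among genes past 0.05 with the same sign in both pairs and a mean of at least 1 CPM, together with list members; some of them are not reported here. The comparison, lists and tests were chosen with earlier results of these data known. The fit was tested on simulated data. At a log2 change of 1 it called 21 of 50 changed genes and at -1 15 of 50. At 2 and at -2 it called all 50, and 3 unchanged genes were called. The simulation gave every gene a common spread and B[a]P libraries the expected counts of their DMSO partners. The uneven pair 1 was therefore not simulated. Transcript GC content came from GENCODE M21. Counting error is small at these depths except for genes of few counts.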

Additional observations from a re-analysis of the deposited data

How the results depend on the processing

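Counts of genes past the threshold depended on the processing, and so did the calls of the genes with the largest changes. No replicate block left 0 calls in the Cr(VI)-grown, control-grown and recovered comparisons and 6 at passage 20, and all 20 libraries with no block left 8 for Cr(VI)-grown cells. DESeq2 called 1636, 708, 479 and 914 for these 4 comparisons, 484 for the difference from control-grown cells and 34 for the difference between passages. No count filter gave 956 for Cr(VI)-grown cells. All 20 libraries with the block gave 388 for control-grown cells, and for Cr(VI)-grown cells 782, of which 50.8% were higher against 38.7% with 12 libraries. The share of the 100 most counted genes as a second covariate, chosen after seeing the data, gave 148, 600 and 564 for Cr(VI)-grown, control-grown and recovered cells. Leaving out single libraries gave 48 to 1624 for Cr(VI)-grown, 27 to 109 for control-grown and 37 to 94 for recovered cells, 22 to 1215 at passage 20, 0 to 582 for the difference from control-grown cells and 0 to 266 for that between passages. The cause was not tested. Of the 24 genes with the largest changes, all kept their sign in each alternative that gave them a value, 24 kept their call with RLE size factors, with no count filter and with DESeq2, 15 with the covariate, 4 with all 20 libraries and no block, and 0 without the block. These genes were picked as the largest changes in largely the same counts, so a kept sign is no independent support. Where a library is left out, the lone one is assumed to vary like the others. The 2 libraries a group and the uneven pair 1 limit all counts.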

Other observations

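Signalling genes that belong to no list used above were among the rises, and they are named here after their values were seen. Csf3, the granulocyte colony-stimulating factor, had 10.2 and 6.17 CPM with B[a]P, against 1.5998 and 1.10 CPM with DMSO (6.10-fold, edgeR adjusted p = 0.0272, 0.076 with the covariate). Lif, a cytokine of the interleukin 6 family, had 76.9 and 28.6 CPM with B[a]P, against 16.4 and 10.8 CPM with DMSO (3.56-fold, adjusted p = 0.00416, 0.0865 with the covariate). The bradykinin receptor gene Bdkrb2 had 15.4 and 21.1 CPM with B[a]P, against 3.86 and 5.52 CPM with DMSO (log2 1.96 ± 0.23, adjusted p = 0.00144, 0.017 with the covariate). All 3 had separate groups, and Bdkrb2 rose alike in both pairs (1.99 and 1.93 in log2). Vegfc, a lymphatic growth factor gene of 109 kb, fell alike in both pairs (-2.10 and -2.06), with 2.89 and 2.30 CPM with B[a]P, against 12.4 and 9.66 CPM with DMSO (adjusted p = 0.00144, 0.0297 with the covariate).

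Of the genes of heme synthesis, 3 are given here, also chosen after their values were seen. Cpox, the coproporphyrinogen oxidase, had 113 and 92.9 CPM with B[a]P, against 44.6 and 25.9 CPM with DMSO (3.02-fold, adjusted p = 0.00359, 0.0297 with the covariate). Alad, an earlier enzyme of the pathway, had 137 and 732 CPM with B[a]P, against 842 and 1824.5 CPM with DMSO (log2 -2.01 ± 0.41, adjusted p = 0.0215, 0.473 with the covariate). Alas1, the first enzyme of the pathway, had a log2 value of 0.47 (adjusted p = 0.258), and with the covariate 1.31 (adjusted p = 0.0346). The rise of Cpox was of like size in both pairs, whereas Alad fell by 2.62 in pair 1 and by 1.32 in pair 2 on the log2 scale. In control-grown cells Cpox rose by 1.25 in log2 (adjusted p = 0.0134) and Alad was at -0.02 (adjusted p = 0.986).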
